A study of Mus musculus with 8 samples.

Results

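The CSF1 axis and the general macrophage genes were followed in 8 TRAMP-C2 tumours. The 10 genes were the ligands Csf1 and Il34, their receptor Csf1r, and 7 genes that macrophages express, namely Adgre1, Cd68, Mertk, Msr1, Fcgr1, Ms4a7 and Lyz2. They were taken by symbol from the 24028 genes of each deposited table, and all 10 were present and passed the filter on low counts. TRAMP-C2 is a prostate adenocarcinoma line from a TRAMP transgenic C57BL/6 mouse. Per the labels, 1 M cells were injected into the dorsolateral prostate of male, immune-competent C57BL/6 hosts, and tumours were harvested 30 to 45 days later. 4 tumours came from aged hosts, 20 to 24 months old, and 4 from young hosts, 4 months old, each from its own numbered mouse. The series asks how the same tumour cells fare in an aged and in a young prostate.

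CSF1 and IL-34 are secreted cytokines that bind the same receptor tyrosine kinase, CSF1R, on cells of the mononuclear phagocyte lineage, and signalling through it sustains the survival and growth of macrophages. CSF1 is made by fibroblasts, endothelial cells and many tumour cells, while IL-34 is best known from keratinocytes and neurons. In tumours, macrophages are a common host cell type and the CSF1 axis is the best known route that maintains them. The tumours were measured in bulk, so a lower value can stand for fewer cells of a type or for less RNA per cell, and these cannot be told apart here.

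The libraries held 27.1 to 35.7 M fragments. The labelled cell type was checked on 7 epithelial markers, whose summed level was 79.3 to 582 FPM (fragments of the gene per M fragments counted in the library) in aged tumours and 48.7 to 326 FPM in young tumours, none of them at 0 throughout. 8 fibroblast markers summed to 2882 to 7158 FPM in aged tumours and 5355 to 8988 FPM in young tumours. Seminal vesicle transcripts stood at 21250 FPM in aged 50 and 36950 FPM in young 36, and at 0.555 to 17.1 FPM in the other 6 tumours. Prostate secretory genes summed to 4844 FPM in aged 50, 11120 FPM in young 37 and 1251 FPM in young 36, and to 5.99 to 198 FPM in the other 5 tumours. The epithelial sum was highest in aged 50 and, among young tumours, in young 37, so it cannot tell TRAMP-C2 cells from host gland. Without aged 50 and young 36 all 10 genes kept the direction of their fold change, and the part of these host gland transcripts in the results was not tested. Aged 46 and aged 51 were the lowest of the 8 tumours in several macrophage genes, and the fold change without them is given for each of the 10 genes.

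By the RefSeq annotation of GRCm38.p6, the axis genes lie as follows: Csf1 (Entrez 12977) on chromosome 3 from 107741048 to 107760469, Il34 (Entrez 76527) on chromosome 8 from 110741829 to 110805949, and Csf1r (Entrez 12978) on chromosome 18 from 61105572 to 61131139. The surface and lysosomal genes are Adgre1 (Entrez 13733) on chromosome 17 from 57358581 to 57483529, Cd68 (Entrez 12514) on chromosome 11 from 69664213 to 69666170, Mertk (Entrez 17289) on chromosome 2 from 128698915 to 128803162, and Msr1 (Entrez 20288) on chromosome 8 from 39543232 to 39642750. The last are Fcgr1 (Entrez 14129) on chromosome 3 from 96282909 to 96293969, Ms4a7 (Entrez 109225) on chromosome 19 from 11321039 to 11336146, and Lyz2 (Entrez 17105) on chromosome 10 from 117277541 to 117282272.

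Per transcript length, Lyz2 was by far the most abundant of the 10 genes and Il34 the least. The median level over the 8 tumours was 1853 FPKM (FPM per kilobase of transcript) for Lyz2, 102 FPKM for Cd68, 62.1 FPKM for Adgre1 and 60.3 FPKM for Csf1r. Fcgr1 followed at 39.5 FPKM, Csf1 at 39.4 FPKM, Ms4a7 at 31.9 FPKM, Msr1 at 14.1 FPKM, Mertk at 6.09 FPKM and Il34 at 4.15 FPKM. Neighbours in this order were not always apart. Adgre1 exceeded Csf1r in 3 of 8 tumours, Fcgr1 exceeded Csf1 in 4, Mertk exceeded Il34 in 6, and Csf1 exceeded Ms4a7 and Msr1 exceeded Mertk in 7 each, while the other 4 neighbouring pairs kept their order in all 8.

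Of the 10 genes, 9 had lower fitted values in aged tumours and Mertk had a higher one. Of all 14575 genes tested, 44.7% had lower fitted values. By the quasi-likelihood test of edgeR, 0 of the 10 had a Benjamini-Hochberg adjusted p under 0.05, and 0 of all genes (0.0% called). DESeq2 called 0 of the 10 (0.297% of the genes it tested) and limma voom 0 of the 10 (0.0617%). An unadjusted edgeR p under 0.05 was found for 3 of the 10, against 4.99% of all genes. Of these, 2 were lower, Csf1 and Cd68, where 2.66% of all genes were, and 1 was higher, Mertk, where 2.34% were. The median log2 fold change, aged minus young, was -0.48 over the 10 genes and 0.03 over all genes tested.

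**Figure D1:**
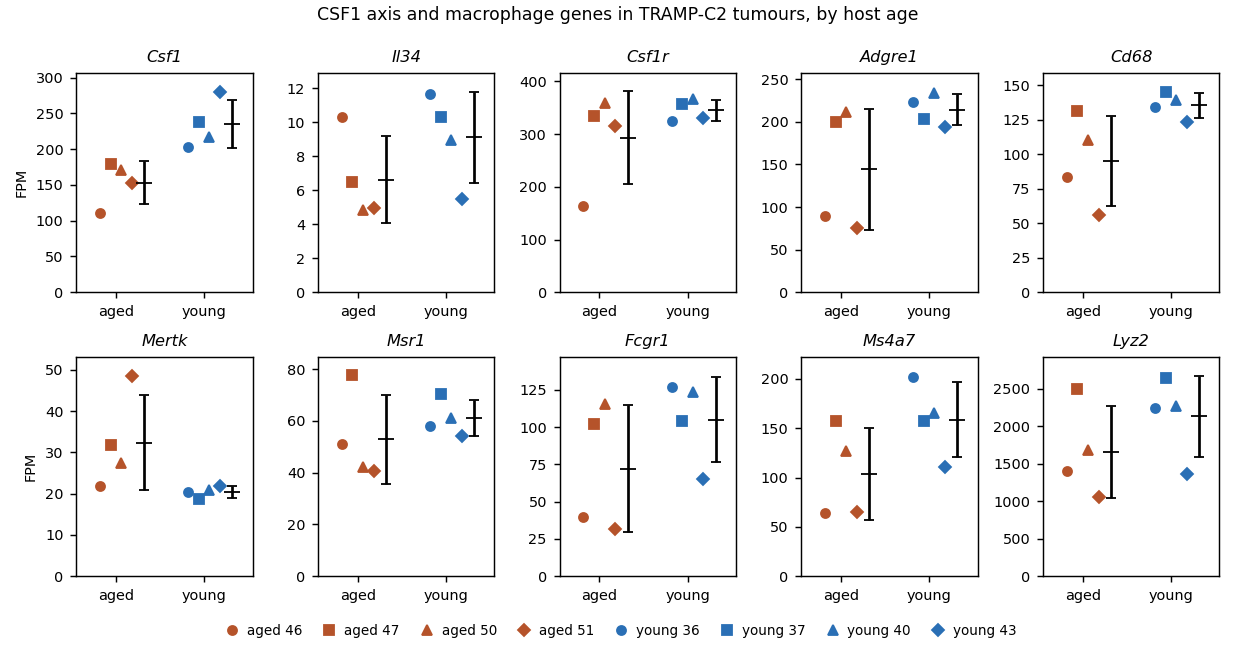
FPM of each of the 10 genes (vertical axes, from 0) in each tumour, aged hosts on the left and young hosts on the right of each panel, with the mean and SD of the 4 tumours as a black bar. The groups do not overlap for Csf1, at 110.3 to 179 FPM in aged tumours and 203 to 280.3 FPM in young tumours, and aged 46 and aged 51 are low in Adgre1, Cd68, Fcgr1 and Ms4a7.

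The ligand Csf1 was lower in every aged tumour than in every young tumour. It stood at 110.3 FPM in aged 46, 179 FPM in aged 47, 171 FPM in aged 50 and 153 FPM in aged 51. Among young tumours it stood at 203 FPM in young 36, 238 FPM in young 37, 217 FPM in young 40 and 280.3 FPM in young 43. Aged 46 was the lowest and young 43 the highest of the 8, and no aged tumour reached a young one. Csf1 was the only one of the 10 genes with no overlap in FPM. Of all tested genes 3.4% had none, 1.95% lower and 1.45% higher in aged tumours. The means were 153 ± 30.5 FPM in aged and 235 ± 33.6 FPM in young tumours (SD, n = 4 each). The log2 fold change was -0.61 ± 0.15 (SE), with an unadjusted edgeR p of 0.00338 and an adjusted p of 0.92, and the adjusted p was 0.073 by DESeq2 and 0.23 by limma voom. 50 of the genes tested had an unadjusted edgeR p at or below that of Csf1, itself included. Without aged 46 and aged 51 the fold change was -0.49. Fibroblast markers, from cells that make CSF1, were lowest in aged 46 at 2882 FPM in sum, against 4851 to 8988 FPM in the other 7 tumours. Aged 50 and aged 51, at 7158 and 6476 FPM, lay above young 36 at 5355 FPM in this sum, though both had less Csf1. Most of this sum was the collagen gene Col1a1, at 2474 FPM in aged 46 and 3786 to 7641 FPM in the other 7. Endothelial markers were also lowest in aged 46, at 234.5 FPM in sum, against 294.3 to 404.4 FPM in the other 7. The part of fibroblasts or endothelial cells in the lower Csf1 was not tested.

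The second ligand, Il34, was low throughout and its groups overlapped. Aged 46 had 10.3 FPM, aged 47 6.46, aged 50 4.83 and aged 51 4.93 FPM. Young 36 had 11.7 FPM, young 37 10.3, young 40 8.98 and young 43 5.46 FPM. The tumours with the most Il34 came from both groups, as did those with the least. Its log2 fold change was -0.44 ± 0.34 (edgeR adjusted p = 0.92), and the value moved with single tumours. It was -0.77 without aged 46, -0.75 without aged 46 and aged 51, -0.27 without young 36, and -0.13 without aged 50 and young 36. The value rests on 149 to 336 fragments per tumour. Its exons overlap those of the antisense transcripts Gm15894 and Gm15895, and since the strand setting of the counting is not given in the sources used here, the 2 strands cannot be told apart in its value. The ratio of Csf1 to Il34, both in FPKM, was 4.12 in aged 46 and 10.6 to 13.6 in the other aged tumours. In young tumours it was 6.7 (young 36) to 9.29 (young 40), and 19.7 in young 43. The mean log2 ratio differed by -0.15, aged minus young, which is within the spread between tumours (exact two-sided permutation p = 0.77 over 70 assignments, smallest possible 0.029), and it was 0.23 without aged 46 and 0.16 without young 43.

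The receptor Csf1r had similar levels in 7 of the 8 tumours. It stood at 164 FPM in aged 46, 334 FPM in aged 47, 359.8 FPM in aged 50 and 315 FPM in aged 51. The young tumours had 324 FPM (young 36), 357 FPM (young 37), 367 FPM (young 40) and 331 FPM (young 43). Aged 46 had less than any other tumour, and the other 7 lay within 315 to 367 FPM. The log2 fold change was -0.23 ± 0.20 with an edgeR adjusted p of 0.92, and it was -0.05 both without aged 46 and without aged 46 and aged 51. The exons of Csf1r overlap those of Hmgxb3 on the opposite strand.

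Among the surface and lysosomal genes of macrophages, Adgre1, Cd68, Fcgr1 and Ms4a7 shared a pattern in which aged 46 and aged 51 were the lowest of the 8. Adgre1, the F4/80 antigen, had 89.8 FPM in aged 46 and 75.8 FPM in aged 51, with 199 and 212 FPM in aged 47 and aged 50. Its young tumours had 224, 204, 235 and 194 FPM (young 36, 37, 40 and 43). Aged 47 and aged 50 lay among the young tumours, and the other aged tumours were at less than any of them. The log2 fold change of Adgre1 was -0.58 ± 0.30, with -0.39 without aged 51 and -0.12 without aged 46 and aged 51.

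Cd68, a glycoprotein of lysosomes and endosomes, had 83.8 FPM in aged 46, 131 in aged 47, 111 in aged 50 and 55.9 FPM in aged 51. Young tumours held 134, 145, 139 and 123 FPM in the same order as above. Only aged 47 reached the range of the young tumours. The log2 fold change of Cd68 was -0.51 ± 0.21, with an unadjusted edgeR p of 0.0395 and an adjusted p of 0.92, and it was -0.34 without aged 51 and -0.22 without aged 46 and aged 51.

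Fcgr1, the high-affinity IgG receptor CD64, had 39.6 FPM in aged 46, 102 in aged 47, 116 in aged 50 and 31.6 FPM in aged 51, against 127, 104, 124 and 65.1 FPM in young 36, 37, 40 and 43. Ms4a7, a four-span membrane protein of macrophages, had 63.6, 157, 127 and 64.7 FPM in aged 46, 47, 50 and 51, against 202, 157.5, 165 and 110.3 FPM in the young tumours in the same order. Young 43 was the lowest young tumour for both genes. The log2 fold changes were -0.56 ± 0.40 for Fcgr1 and -0.64 ± 0.30 for Ms4a7, and without aged 46 and aged 51 they were -0.01 and -0.23. That of Fcgr1 was also -0.33 without aged 51 and -0.86 without aged 50. The edgeR adjusted p was 0.92 for all 4 genes of this group.

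Lyz2, which encodes the lysozyme of macrophages and other myeloid cells, had 1398, 2490, 1679 and 1061 FPM in aged 46, 47, 50 and 51. The young tumours had 2238, 2643, 2268 and 1364 FPM. The lowest tumours were aged 51, young 43 and aged 46, so both groups held low values, and the log2 fold change was -0.37 ± 0.27 (edgeR adjusted p = 0.92). It was -0.61 without aged 47, -0.22 without aged 51, -0.09 without aged 46 and aged 51, and -0.09 by limma voom. The neighbouring lysozyme gene Lyz1 had -0.37 ± 0.26 and 264 ± 93.0 FPM in aged and 339.7 ± 92.9 FPM in young tumours (SD, n = 4 each). Of the 1267 stretches of 50 bases in the Lyz2 transcript, the read length, 195 (15.4%) also occur in Lyz1 transcripts, so a share of the reads of either gene could have been counted for the other. Msr1, a class A scavenger receptor that takes up modified lipoproteins, had 51.2, 77.7, 42.3 and 40.5 FPM in aged tumours, against 58.2, 70.5, 61.3 and 54.1 FPM in young tumours. Aged 47 was the highest of the 8 and aged 51 the lowest, so the aged tumours enclosed the young ones. Its log2 fold change was -0.20 ± 0.20 by edgeR, and 0.10 by limma voom with sample weights. It was -0.42 without aged 47, -0.09 without aged 50, -0.11 without aged 51, -0.12 without young 37 and -0.09 without aged 46 and aged 51.

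Mertk, a receptor tyrosine kinase through which macrophages engulf dying cells, was the only gene of the 10 with a higher value in aged tumours. It stood at 21.8 FPM in aged 46, 31.7 in aged 47, 27.5 in aged 50 and 48.6 FPM in aged 51, against 20.4, 18.6, 20.8 and 21.9 FPM in young 36, 37, 40 and 43. Aged 46 lay just under young 43 in FPM. On the TMM-scaled log2 CPM scale, which corrects for library composition, all 4 aged tumours lay above all 4 young ones, as 1.35% of the tested genes did, and 2.31% had all aged tumours below, Csf1 among them. Means were 32.4 ± 11.5 FPM in aged and 20.4 ± 1.36 FPM in young tumours (SD, n = 4 each). The log2 fold change was 0.68 ± 0.24, with an unadjusted edgeR p of 0.0179 and an adjusted p of 0.92 (0.44 by DESeq2 and 0.15 by limma voom). Without aged 51 it was 0.39, and without aged 46 and aged 51 0.48. Aged 51 was also the tumour with the highest sums of adipocyte markers, 432 FPM against 30.8 to 170.4 FPM elsewhere, and of skeletal muscle markers, 117 FPM against 9.51 to 37.4 FPM. Most of the adipocyte sum was 1 gene, Fabp4, at 397.7 FPM in aged 51 and 156.3 FPM in young 37. The part of either cell type in the Mertk level of aged 51 was not tested.

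**Figure D2:**
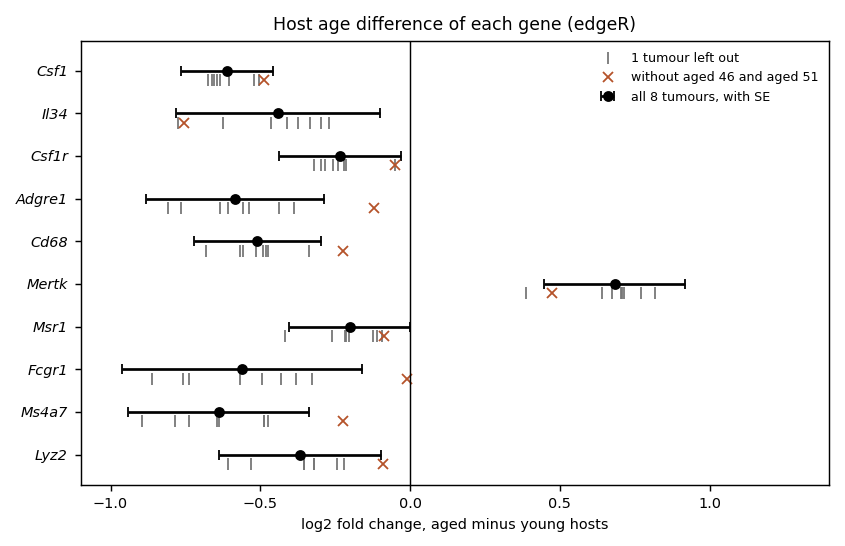
Log2 fold change, aged minus young hosts, of each of the 10 genes (horizontal axis) from edgeR, with the SE as a bar, the values with 1 tumour left out as grey ticks and the value without aged 46 and aged 51 as a cross. 9 genes lie below 0 and Mertk above it, and the crosses of Fcgr1 (-0.01) and Csf1r (-0.05) lie close to 0.

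Relative to the receptor, aged 51 was the lowest of the 8 tumours for Adgre1, Cd68, Fcgr1 and Ms4a7, and aged 46 was not. In FPKM, the ratio of Adgre1 to Csf1r was 0.409 in aged 51, with 0.928 to 1.01 for aged 46, 47 and 50, and 0.968 to 1.17 for the young tumours. The ratio of Cd68 to Csf1r was 0.785 in aged 51 and 2.25 in aged 46, against 1.65 to 1.83 in young tumours. Aged 51 had a Csf1r level near that of the other tumours beside low Adgre1 and Cd68, whereas in aged 46 the receptor and these genes were low together.

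The ratio of Mertk to Csf1r was 0.203, 0.146, 0.1175 and 0.237 in aged 46, 47, 50 and 51, and 0.0963, 0.08, 0.087 and 0.102 in young 36, 37, 40 and 43. All 4 aged tumours lay above all 4 young tumours. This ratio was singled out after its values were seen and has no test, and 4.4% of all tested genes had a ratio to Csf1r that was higher in aged tumours with no overlap. The ratio of Csf1 to Csf1r was 0.764 in aged 46 and 0.54 to 0.609 in the other aged tumours, against 0.674 to 0.964 in young tumours, so these groups overlapped through aged 46.

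**Figure D3:**
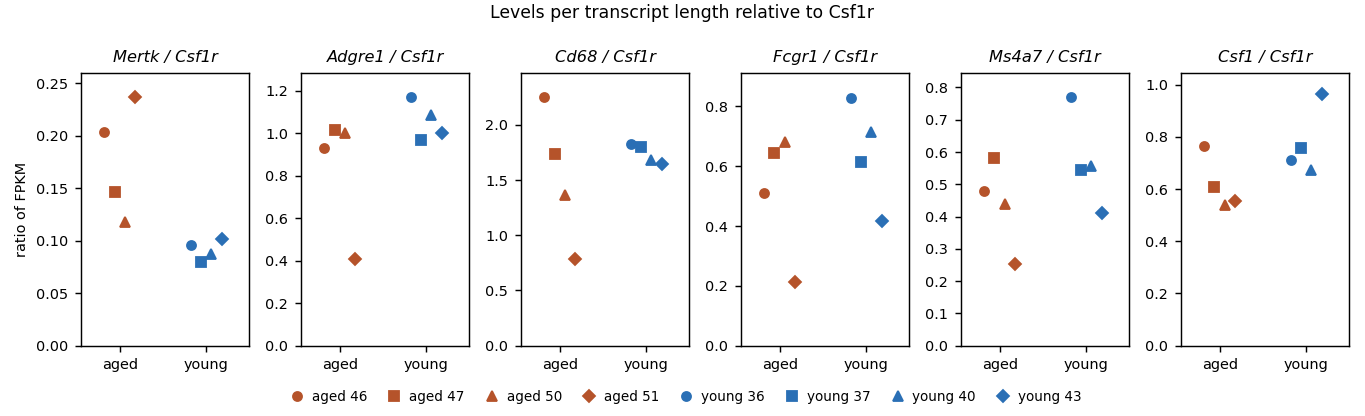
Ratio of the FPKM of 6 genes to that of Csf1r (vertical axes, from 0) in each tumour, aged hosts left of young hosts. Mertk to Csf1r is at 0.118 to 0.237 in aged tumours and 0.08 to 0.102 in young tumours, and aged 51 is the lowest tumour for Adgre1, Cd68, Fcgr1 and Ms4a7.

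The ligands were related to the receptor and to the 7 macrophage genes over the 8 tumours, on TMM-scaled log2 CPM. Each ligand was set against all other tested genes, and p-values were adjusted over those 14574. Csf1 and Csf1r had r = 0.72 (exact permutation p = 0.042, adjusted p = 0.71) and rho = 0.43 (exact permutation p = 0.3), and 3.63% of the genes had an r with Csf1 at least as high. Without aged 46 alone r was 0.19, and without aged 46 and young 43, the tumours farthest from the median of Csf1, it was 0.69 (exact permutation p = 0.15). Il34 and Csf1r had r = -0.33 (exact permutation p = 0.61, adjusted p = 0.96) and rho = -0.02 (exact permutation p = 0.98). Without aged 46 that r was 0.48, and without young 36 and aged 50, the tumours farthest from the median of Il34, it was -0.44. Csf1 and Il34 themselves had r = -0.02 (exact permutation p = 0.96) and rho = 0.17 (exact permutation p = 0.7). That r was 0.92 without aged 46 and young 43 (exact permutation p = 0.033), and -0.27 without young 36 and aged 50 (exact permutation p = 0.62). No gene passed the adjusted threshold with Csf1, Il34 or Csf1r (0.0% called in each case). Csf1r itself had an unadjusted exact p under 0.05 with 0 of the 7 macrophage genes, against 6.94% of all genes at r above 0 and 5.87% at r below 0. Its r was 0.62 with Ms4a7 (exact permutation p = 0.055), 0.56 with Fcgr1, 0.35 with Cd68 and 0.32 with Lyz2. With Msr1 and Mertk it was 0.07 and 0.02. Without aged 51 alone r was 0.86 with Fcgr1 and 0.83 with both Ms4a7 and Cd68 (adjusted p = 0.30 for each). Without aged 46 and aged 51 these were 0.50, 0.23 and 0.31, and Adgre1 had 0.49.

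Of the 14 pairs of a ligand with a macrophage gene, 0 had an unadjusted exact p under 0.05 by Pearson's r and 1 by Spearman's rho, where 4.12% of all genes had such a Pearson p with Csf1 at r above 0 and 2.7% at r below 0. For Il34 these shares were 3.68% and 3.22%. No such share over all genes was taken for Spearman's rho, so the 1 pair called by rho has none beside it. The pair was Csf1 with Cd68, at r = 0.61 (exact permutation p = 0.11, adjusted p = 0.83) and rho = 0.74 (exact permutation p = 0.046, adjusted p = 0.77). Without the 2 tumours farthest from the median of Csf1, its r was 0.74 (exact permutation p = 0.044). With the mean of each host age removed, r was 0.0833 for this pair, 0.18 for Csf1 with Ms4a7 and 0.11 for Csf1 with Fcgr1. Csf1 had r = 0.6 with Ms4a7, 0.48 with Fcgr1 and 0.32 with both Msr1 and Lyz2, with exact permutation p of 0.12 to 0.44 and rho of 0.36 to 0.57 (exact permutation p of 0.15 to 0.39). Without aged 46 and aged 51 the r of Csf1 was -0.56 with Fcgr1, -0.14 with Ms4a7, -0.21 with Lyz2, 0.19 with Msr1 and 0.47 with Cd68 (exact permutation p of 0.26 to 0.81). Adgre1 fell into separate sets of 2 and 6 tumours, so no r of it over all 8 is given unless group means were removed. Over the 6 without aged 46 and aged 51 its r with Csf1 was -0.04 (exact permutation p = 0.95) and with Il34 0.72 (exact permutation p = 0.12).

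Csf1 and Mertk had r = -0.43 over the 8 tumours (exact permutation p = 0.29) with rho = -0.67 (exact permutation p = 0.083), with r = -0.74 without aged 46 and -0.84 (exact permutation p = 0.022) without aged 46 and young 43. With the mean of each host age removed r was 0.42, and with aged 46 also left out it was -0.0717. Il34 and Mertk had r = -0.6 (exact permutation p = 0.092) and rho = -0.6 (exact permutation p = 0.13). Il34 had r = 0.57 with Lyz2, 0.56 with Msr1, 0.43 with Cd68, 0.34 with Ms4a7 and 0.25 with Fcgr1, with exact permutation p of 0.14 to 0.52 and rho of 0.33 to 0.64 (exact permutation p of 0.096 to 0.43). Over the 6 tumours without aged 46 and aged 51, an exclusion chosen after seeing the data, Il34 had r = 0.92 with Cd68 (exact permutation p = 0.0097) and 0.89 with Ms4a7 (exact permutation p = 0.018), with an adjusted p of 0.98 for each.

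**Figure D4:**
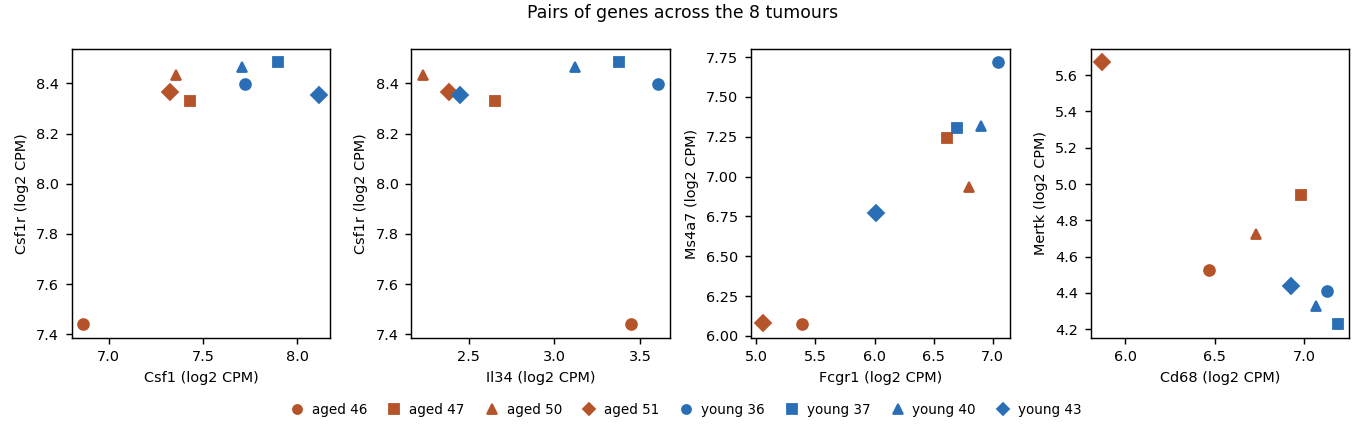
Log2 CPM of 4 pairs of genes, with each tumour as a point in the colour of its host age and a shape of its own. Aged 46 lies far below the other tumours in Csf1r, Fcgr1 and Ms4a7 fall along 1 line (r = 0.95), and aged 51 has the lowest Cd68 with the highest Mertk.

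The macrophage genes were also set against each other. Among Cd68, Msr1, Fcgr1, Ms4a7 and Lyz2, all 10 pairs had a positive r, of 0.45 (exact permutation p = 0.26) to 0.95. Without aged 46 and aged 51 these pairs had r of 0.0506 to 0.81. The closest of these 10 pairs, which leave out Adgre1, was Fcgr1 with Ms4a7, at r = 0.95 (exact permutation p = 0.00077) and rho = 0.9 (exact permutation p = 0.0046). Its adjusted p was 0.047 over the genes set against Fcgr1, of which 1.96% passed, and 0.12 over those set against Ms4a7, of which 0.0% passed. Its r was 0.79 (exact permutation p = 0.06) without aged 46 and aged 51, which were also the tumours farthest from the median of both genes. Over the same 6 tumours Adgre1 and Fcgr1 had r = 0.78 (exact permutation p = 0.0375). By r, Lyz2 was closest to Ms4a7, at r = 0.86 (exact permutation p = 0.0052) and rho = 0.74 (exact permutation p = 0.046). The adjusted p of this r was 0.12 over the genes set against Lyz2, of which 0.35% passed. By rho, Lyz2 was closest to Cd68, at rho = 0.86 (exact permutation p = 0.011) and r = 0.84 (exact permutation p = 0.0035). The 5 pairs of these genes with Mertk all had a negative r, of -0.84 to -0.49, led by Cd68 (exact permutation p = 0.025, adjusted p = 0.21 over the genes set against Cd68, and rho = -0.81 with exact permutation p = 0.022). Without aged 46 and aged 51 Mertk had r = -0.64 with Cd68 (exact permutation p = 0.17), and -0.25 with Ms4a7, -0.15 with Lyz2, -0.0907 with Msr1 and -0.0771 with Fcgr1 (exact permutation p of 0.63 to 0.88). All genes of a tumour share 1 library, and its makeup enters every such relation.

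The genes whose pattern was most like that of each axis gene were taken by Pearson's r over the 8 tumours. For Csf1 they were Epha7, Ccdc102a, Kctd15, Fam212a and Spry1, with r of 0.96 to 0.97 and exact permutation p of 2.5e-05, the smallest the 40320 pairings can give, to 0.000595. Epha7 encodes an ephrin receptor and Spry1 an inhibitor of receptor tyrosine kinase signalling. Epha7 had 6.51 ± 2.37 FPM in aged and 14.6 ± 4.45 FPM in young tumours, and Spry1 had 39.0 ± 15.5 FPM in aged and 73.3 ± 16.5 FPM in young tumours (SD, n = 4 each). For Il34 they were Hspe1, Serf1, Usb1, Scx and Hilpda, with r of 0.93 to 0.96 and exact permutation p of 0.000347 to 0.00518. For Csf1r they were Aff3, Grn, Tesk1, Copz2 and 1190002N15Rik, with r of 0.97 to 0.99 but rho of 0.57 (1190002N15Rik) to 0.98 (Copz2), and all were at their lowest in aged 46. The smallest adjusted p of these relations by Pearson's r was 0.29 for Csf1, 0.51 for Il34 and 0.37 for Csf1r.

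Csf1r was left out of the promoter search. Promoter windows of 6 of the 10 genes were read from the RefSeq table of GRCm38.p6, from 250 bases before to 50 bases after the start. They are shown for Csf1 and Mertk, the first lower and the second higher in aged tumours by unadjusted p, and for Cd68, Fcgr1 and Ms4a7, which were lowest in the same 2 aged tumours. Each reads 5′ to 3′ along the gene's strand, and capitals mark GAGGAA on either strand, the core that the macrophage transcription factor PU.1 prefers.
Csf1 (chr3:107760420-107760719, minus strand): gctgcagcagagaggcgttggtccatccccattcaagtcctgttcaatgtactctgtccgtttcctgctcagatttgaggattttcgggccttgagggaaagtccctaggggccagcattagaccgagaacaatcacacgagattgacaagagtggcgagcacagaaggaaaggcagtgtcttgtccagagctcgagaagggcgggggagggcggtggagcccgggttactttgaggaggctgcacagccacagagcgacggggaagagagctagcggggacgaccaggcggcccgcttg
Mertk (chr2:128698665-128698964, plus strand): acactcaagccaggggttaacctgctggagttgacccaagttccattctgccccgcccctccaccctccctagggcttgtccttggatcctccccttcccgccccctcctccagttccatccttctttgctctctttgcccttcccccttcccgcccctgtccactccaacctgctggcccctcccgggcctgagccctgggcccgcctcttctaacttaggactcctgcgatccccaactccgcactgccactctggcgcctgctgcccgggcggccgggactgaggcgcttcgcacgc
Cd68 (chr11:69666121-69666420, minus strand): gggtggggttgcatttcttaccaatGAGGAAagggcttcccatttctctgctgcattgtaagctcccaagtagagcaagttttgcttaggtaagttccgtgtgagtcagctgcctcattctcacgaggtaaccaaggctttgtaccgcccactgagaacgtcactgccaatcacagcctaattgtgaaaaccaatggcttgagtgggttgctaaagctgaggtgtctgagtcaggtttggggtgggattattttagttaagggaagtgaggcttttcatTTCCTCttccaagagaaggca
Fcgr1 (chr3:96293920-96294219, minus strand): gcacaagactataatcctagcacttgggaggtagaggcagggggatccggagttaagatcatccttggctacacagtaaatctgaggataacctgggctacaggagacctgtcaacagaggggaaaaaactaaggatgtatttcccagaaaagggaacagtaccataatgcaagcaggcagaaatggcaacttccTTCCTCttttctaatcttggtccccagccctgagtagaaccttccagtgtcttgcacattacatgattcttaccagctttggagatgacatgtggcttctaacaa
Ms4a7 (chr19:11336097-11336396, minus strand): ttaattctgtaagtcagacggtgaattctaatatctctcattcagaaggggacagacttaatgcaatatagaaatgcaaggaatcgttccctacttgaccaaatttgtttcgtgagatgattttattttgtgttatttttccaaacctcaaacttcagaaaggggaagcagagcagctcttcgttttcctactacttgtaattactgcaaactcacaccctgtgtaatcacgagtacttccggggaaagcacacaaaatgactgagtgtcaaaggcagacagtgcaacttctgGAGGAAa

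GAGGAA occurred in windows of Cd68, Fcgr1 and Ms4a7, which is 3 of the 6 genes, and in 28.3% of all 32851 windows of this length. The 6 genes had 7 windows, and of the 2 of Ms4a7 only the one shown held GAGGAA. In Fcgr1 it lay 55 to 50 bases before the start, as -55 to -50, on the opposite strand. TGANTCA, the AP-1 site, occurred in Cd68 and in a second start of Ms4a7, and in 7.81% of all windows. TTGCNNAA, a C/EBP site, occurred in Cd68 only of the 6 genes, and in 10.8% of all windows, and TATAAA in none of the 6 and in 13.6% of all. Both strands were searched, and no 2 of these matches overlapped. The windows of Csf1 and Mertk were 58.7% and 66.0% G or C with 16 and 14 CG pairs, those of Cd68, Fcgr1 and Lyz2 44.3 to 47.7% with 1 to 4, and those of the 2 starts of Ms4a7 31.7 and 39.7% with 1 and 6. The median window had 52.7% and 7 CG pairs. These matches describe the letters of the windows only.

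For the other genes of the pathway, 0 genes of any list below passed edgeR's adjusted threshold. Of 10 tested genes of the other colony-stimulating factors, their receptors and related cytokines, 4 were lower and 6 higher in aged tumours, and 1 had an unadjusted p under 0.05. This was Il3ra, a receptor chain for interleukin 3, with 10.9 ± 3.39 FPM in aged and 16.3 ± 0.222 FPM in young tumours (SD, n = 4 each) and no overlap. Of all tested genes 2.66% were lower at an unadjusted edgeR p under 0.05, and 1.95% were lower with no overlap. Csf3, which encodes the factor that drives granulocyte output, had 0.86 ± 0.50 (log2 fold change, as for the genes that follow) at 1.96 FPM in aged and 1.1 FPM in young tumours. Of the 3 genes for other proteins known to bind IL-34, 2 were lower and 1 higher. Ptprz1, at 1.29 FPM in aged and 0.622 FPM in young tumours, had 1.01 ± 0.96 and the microglial receptor gene Trem2 -0.40 ± 0.26. Of 20 genes that act downstream of CSF1R, 14 were lower and 6 higher with a median of -0.04 and none under an unadjusted p of 0.05, and the adaptor gene Gab2 had 0.38 ± 0.20 and the kinase gene Src 0.30 ± 0.18.

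Of 12 transcription factors of macrophages, 7 were lower and 5 higher. Cebpb, an activator of inflammatory and myeloid genes, had -0.49 ± 0.16 and was the 1 gene with an unadjusted edgeR p under 0.05. Lower values at such a p were held by 2.66% of all tested genes. Tfec had 0.71 ± 0.33. Of 9 tested genes for the uptake of dying cells beside Mertk, 5 were lower and 4 higher. Itgb5, an integrin chain that binds apoptotic cells through a bridging protein, had 199.7 ± 49.3 FPM in aged and 287 ± 25.5 FPM in young tumours (SD, n = 4 each), with no overlap and a log2 fold change of -0.52 ± 0.16, and Pros1, a ligand of Mertk, had -0.27 ± 0.15. Of 10 tested scavenger receptors beside Msr1, 8 were higher and 2 lower, with a median log2 fold change of 0.27 against 0.03 over all genes. Cd163, the haemoglobin scavenger receptor, had 17.9 ± 6.45 FPM in aged and 4.91 ± 2.7 FPM in young tumours (SD, n = 4 each), with no overlap and a log2 fold change of 1.89 ± 0.44 (edgeR adjusted p = 0.83). Groups without overlap, as for Itgb5 and Cd163, were lower in aged tumours for 1.95% of all tested genes and higher for 1.45%. Cd36, a receptor for lipids that adipocytes and endothelial cells also express, had 2.13 ± 0.76, and 180.5 FPM in aged 51 alone against 5.65 to 53.3 FPM in the other 7 tumours.

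Of the 5 Fc receptor genes beside Fcgr1, 4 had higher fitted values in aged tumours, with none at an unadjusted p under 0.05, and Fcgr3 had 0.43 ± 0.26 and the inhibitory receptor gene Fcgr2b 0.40 ± 0.24. The Ms4a family beside Ms4a7 was split, with 4 of 8 tested genes higher and 4 lower. Ms4a8a had 1.81 ± 0.45 at 3.01 FPM in aged and 0.861 FPM in young tumours, and Ms4a4d -0.71 ± 0.38. Of 17 lysosomal genes 14 were lower and 3 higher, with a median log2 fold change of -0.16. An unadjusted edgeR p under 0.05 was held by 1 lower and 1 higher gene, where 2.66% and 2.34% of all tested genes held one. The higher one was Gpnmb, a glycoprotein of lipid-laden macrophages. Its groups overlapped, at 25.0 ± 5.73 FPM in aged and 12.9 ± 6.36 FPM in young tumours (SD, n = 4 each). Of 5 genes for chemokines that draw monocytes, 4 were lower and 1 higher, and Ccl2 had -0.45 ± 0.29 and Ccl12 -0.78 ± 0.53.

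Markers of other cells of the myeloid lineage were read beside these genes. Of 6 tested osteoclast markers all 6 were lower in aged tumours, 5 of them at an unadjusted edgeR p under 0.05, where 44.7% of all tested genes were lower and 2.66% lower at such a p. These markers had a summed level of 50.4 to 70.2 FPM in aged and 92.5 to 248 FPM in young tumours, and Calcr and Oscar were below the filter. Of 9 monocyte markers 6 were lower and 3 higher, at 314 to 707 FPM in sum in aged and 360.3 to 568 FPM in young tumours. Of 6 tested neutrophil markers 5 were higher, 3 of them at an unadjusted edgeR p under 0.05, where 2.34% of all tested genes were. Their sum was 68.3 to 147 FPM in aged and 41.9 to 94.9 FPM in young tumours. The lower one was Csf3r, the most abundant, at 19.7 FPM in aged and 24.0 FPM in young tumours (log2 fold change -0.30 ± 0.36). Camp was below the filter. Of 8 dendritic cell markers 5 were higher and 3 lower, with 9.86 to 44.5 FPM in aged and 14.1 to 31.2 FPM in young tumours. T cell markers were lowest in aged 46 (16.8 FPM in sum) and aged 51 (20.4 FPM), against 63.3 and 103.0 FPM in the other aged tumours and 20.9 to 68.9 FPM in young tumours. The part of these cells in the levels of the 10 genes was not tested.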

How the data were processed

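RNA of 8 tumours was measured by TruSeq mRNA sequencing with 50 bp paired-end reads. GRCm38, TopHat2 2.0.12, Picard 2.7.1 and bcl2fastq are named in the submitters' processing notes. Neither the counter nor its strand setting is given in the sources used here. Each deposited table lists, per the file headers, the count of fragments per Entrez gene, its FPM (the authors' CPM, the count over the tumour's total) and its FPKM (the authors' FPM over the transcript length in the same table). 27 symbols that had turned into dates were restored through their Entrez numbers.

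Counts were filtered with filterByExpr (minimum count 10, minimum total 15), scaled with TMM and tested with edgeR 4.0.16 in R 4.3.3 (robust quasi-likelihood fit, host age as the only term, Benjamini-Hochberg adjustment over all 14575 genes, threshold 0.05). SEs are the fold change over the square root of F. Relations used log2 CPM with a prior count of 2 and exact two-sided permutation of the 40320 pairings (720 over 6 tumours, 576 within host ages). DESeq2 1.42.0, limma 3.58.1 voom, other scalings, filters and left-out tumours were alternatives, and the exclusion of aged 46 and aged 51 was chosen after seeing the data, as was removing group means with aged 46 left out. Both the edgeR and the relation procedure were tested on simulated data.

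The named genes were the 10 members, Lyz1, the 2 genes of each pathway list with the smallest edgeR p (1 of them is not reported here), and the 5 genes most like Csf1, Il34 and Csf1r averaging 0 or more in log2 CPM. Of the listed genes, Ms4a4a, Ms4a14 and Ly6g are not analysed here, and Spink3 was read under Spink1. The members and lists were chosen with earlier results of these data known. Coordinates and promoters are those of RefSeq on GRCm38.p6, and exon overlaps come from GENCODE vM21. 3 fragments were 0.084 to 0.111 FPM, a limit for counting error only. The closest pair of libraries differed beyond sampling noise. The labels give each tumour a mouse of its own, so p-values measure the spread between mice, and no number is shared between the groups.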

Additional observations from a re-analysis of the deposited data

How the results depend on the processing

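All 10 genes kept their direction in the 18 alternatives to the edgeR fit, except Msr1 under voom (0.10), and none passed the adjusted threshold in any. The adjusted p of Csf1 ranged from 0.073 (DESeq2) to 1.0 (0.997) and its fold change from -0.69 to -0.40. Over all genes DESeq2 called 43 (17 higher, 26 lower) and limma voom 9 (4 higher, 5 lower), against 0 by edgeR, and the cause was not tested. No scaling moved the median of all genes by more than 0.1 on the log2 scale.

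The Csf1 to Il34 ratio ranged from -0.36 to 0.23 with 1 tumour left out, turning positive without aged 46 or young 43, and was 0.23 without aged 46 and aged 51. Il34 with Csf1r ranged from -0.47 to 0.48 with 1 tumour left out and was 0.42 without aged 46 and aged 51. Csf1 with Csf1r ranged from 0.19 to 0.83 with 1 left out and was 0.06 without aged 46 and aged 51. Of the 14 ligand pairs, 0 to 2 had an unadjusted p under 0.05 with 1 tumour left out, 2 with library sizes only, 2 without aged 46 and aged 51, and 2 without the tumours farthest from the median, against 0 in the main fit over 8 tumours.

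With group means removed, r was 0.42 for Csf1 with Mertk, -0.0453 for Csf1 with Msr1, -0.11 for Csf1 with Lyz2, -0.19 for Il34 with Adgre1 and -0.14 for Csf1r with Msr1. Without aged 46 and aged 51 it was -0.0362 for Csf1 with Adgre1, -0.56 with Fcgr1, -0.14 with Ms4a7 and -0.21 with Lyz2, and -0.67 and -0.13 for Csf1r with Mertk and with Msr1. Without the tumours farthest from the median of Csf1r these were -0.45 and -0.30. With 1 tumour left out, Csf1r with Mertk ranged from -0.57 to 0.123 (below 0 without aged 46 or aged 51), Il34 with Adgre1 from -0.21 to 0.493 (below 0 without aged 51 or young 36), Il34 with Fcgr1 from -0.0224 to 0.572 (below 0 without aged 51) and Csf1r with Msr1 from -0.0416 to 0.2135 (below 0 without young 37). No paired analysis was possible because the groups share no replicate number. With 4 tumours a group, exact tests of a difference cannot go below 0.029.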
